A study of Mus musculus with 30 samples.

Results

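Yam1, Lars2 and Gm15564 are 3 mouse genes, each listed with 1 transcript, among 14456 gene symbols in the 4 count tables used here. They were selected on their share of the counts in these libraries, first seen in the injured nerve inputs, as genes that reads of ribosomal RNA might be assigned to. Whether the reads counted on them came from ribosomal RNA was not tested. The study measured RNA in axoplasm, the cytoplasm squeezed out of nerve fibres, from mouse sciatic nerve, and RNA recovered from it with antibodies to nucleolin and to PTBP1. Naive groups came from uncrushed nerves and injured groups from nerves taken 7 days after a crush. In each condition there were 3 input libraries of the extract, 3 immunoprecipitation (IP) libraries for each antibody, and 3 blocked IP libraries for each antibody, made with antibody first mixed with its blocking peptide. A sample pooled 10 nerves, and the 3 samples of a group were independent biological repeats. The sources used here state no strain, age or sex for the mice. The extract is enriched for axoplasm and is not pure axon.

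Ribosomal RNA makes up most of the RNA of a cell. RNA polymerase I copies it from tandem ribosomal DNA repeats as 1 long precursor, which is cut into the small-subunit and large-subunit RNAs. Stretches resembling these RNAs lie elsewhere in the genome, and a read from ribosomal RNA can align there. Nucleolin is an abundant nucleolar protein that binds RNA and takes part in ribosome production. PTBP1 binds pyrimidine-rich RNA and regulates splicing. Lars2 encodes the leucyl-tRNA synthetase of mitochondria, which loads leucine onto its tRNA. Yam1 and Gm15564 are long noncoding transcripts.

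The sequences of the 3 transcripts are shown because they are what a read is matched to. Positions are of GRCm38 with the GENCODE mouse release M21. The Yam1 transcript (ENSMUST00000182010) has 1 exon of 1831 bases at chr17:39846958-39848788 on the plus strand and is named Gm42418 in that release. It lies wholly within CT010467.1, a gene annotated as rRNA on the minus strand. That gene has 2 transcripts, and Yam1 matches the opposite strand of both. Bases 1 to 1244 of Yam1 (67.9%) match ENSMUST00000198477, of class rRNA, in stretches of at least 25 bases. A further transcript of class pseudogene, ENSMUST00000205406, matches 678 bases between 1146 and 1831. AY036118, a noncoding gene on the minus strand, also lies within Yam1, and the opposite strand of its transcript matches bases 156 to 1078 of Yam1 (50.4%). The 120 bases below span the point where the match to the rRNA-class transcript ends, with bases matching that transcript in capitals. The lower-case bases lie in the span of the pseudogene-class match. The letters just before that point are, as background, the well-known conserved 3′ end of small-subunit ribosomal RNA.
Yam1, chr17:39848122-39848241, plus strand: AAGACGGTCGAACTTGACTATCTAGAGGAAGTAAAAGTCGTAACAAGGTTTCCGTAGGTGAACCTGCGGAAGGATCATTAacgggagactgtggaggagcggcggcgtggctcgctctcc

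The Lars2 transcript (ENSMUST00000038863) is protein-coding, with 21 exons and 3894 bases at chr9:123366927-123462664 on the plus strand. Its last exon holds a 3′ UTR of 989 bases, chr9:123461676-123462664. The Gm15564 transcript (ENSMUST00000173605) has 4 exons and 402 bases at chr16:35966753-35983230 on the minus strand, antisense to parts of the protein-coding genes Parp9 and Kpna1. Exon 2 of Gm15564, chr16:35981725-35981795, is 71 bases long, and 70 of these are identical in the 3′ UTR of Lars2, at chr9:123462049-123462119. The match stops at the exon's end on one side and 1 base beyond it on the other. As background, the letters of this exon are a conserved stretch of large-subunit ribosomal RNA. Only the reference transcripts were searched here, with no separate sequence of cytosolic ribosomal RNA. Neither Lars2 nor Gm15564 shared a 25-base word with any of the 356 genes annotated there as rRNA or mitochondrial rRNA. Whether the cytosolic large-subunit RNA was among those genes was not checked. The longest identical run was 51 bases. In the pair of 30-base windows below, the capital marks the 1 base of the exon that differs, T52A, counted from 1 at the 5′ end of exon 2, with the base of Gm15564 first.
Gm15564, chr16:35981731-35981760, minus strand: gggaacgtgagctgggTttagaccgtcgtg
Lars2, chr9:123462084-123462113, plus strand: gggaacgtgagctgggAttagaccgtcgtg

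AA474408, at chr7:110057987-110061325, was the other gene that shared 25-base words with both Lars2 and Gm15564. The best ungapped placement of exon 2 there had 55 of 71 bases identical, with a longest identical run of 35 bases. Yam1 shared no 25-base word with Lars2 or Gm15564. Thus Lars2 and Gm15564 have a stretch of sequence in common, while Yam1 stands apart from both.

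The 30 libraries held 7536033 to 22919174 counts. The 3 genes together took 3.78% of all counts, and 0.168% to 57.5% of a library (median 1.54%). Each of their counts was at least 1379, so the 95% Wilson interval of a share reached at most 5.28% of that share to either side, for counting error alone. The first injured input stands apart from the other inputs: it had the fewest counts, 57.5% of them on the 3 genes, and listed 7.28% of its transcripts at 0, against 0% to 1.78% in the other 5 inputs. The axonal mRNAs Nefl and Stmn2 summed to 108 to 144 CPM (counts scaled to a common library size) in the naive and 24.9 to 54.4 in the injured inputs. Markers of Schwann cells, macrophages, fibroblasts, endothelium, adipocytes and skeletal muscle were also listed in the inputs. The CPM are per library total, the 3 genes included, so a high share of the 3 genes lowers the CPM of all others. In bulk samples, fewer cells of a type and less RNA per cell cannot be told apart.

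Yam1 had the highest share of the 3. In the naive inputs it took 3.54%, 1.09% and 0.482% of the counts, a mean of 1.70% ± 1.62 (SD, n = 3). In the injured inputs it took 38.1%, 19.5% and 5.37%, a mean of 21.02% ± 16.4 (SD, n = 3). All injured inputs lay above all naive inputs, and Yam1 was the most counted transcript in each injured input. The lowest injured and the highest naive values were 5.37% and 3.54%.

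Lars2, the mitochondrial synthetase, took 3.18%, 0.772% and 0.360% of the naive inputs and 15.4%, 4.05% and 1.70% of the injured inputs. These ranges overlapped, since the first naive input exceeded the third injured one. Gm15564 took 0.696%, 0.147% and 0.0789% of the naive inputs and 3.96%, 0.862% and 0.345% of the injured inputs. Its ranges overlapped in the same way.

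**Figure D1:**
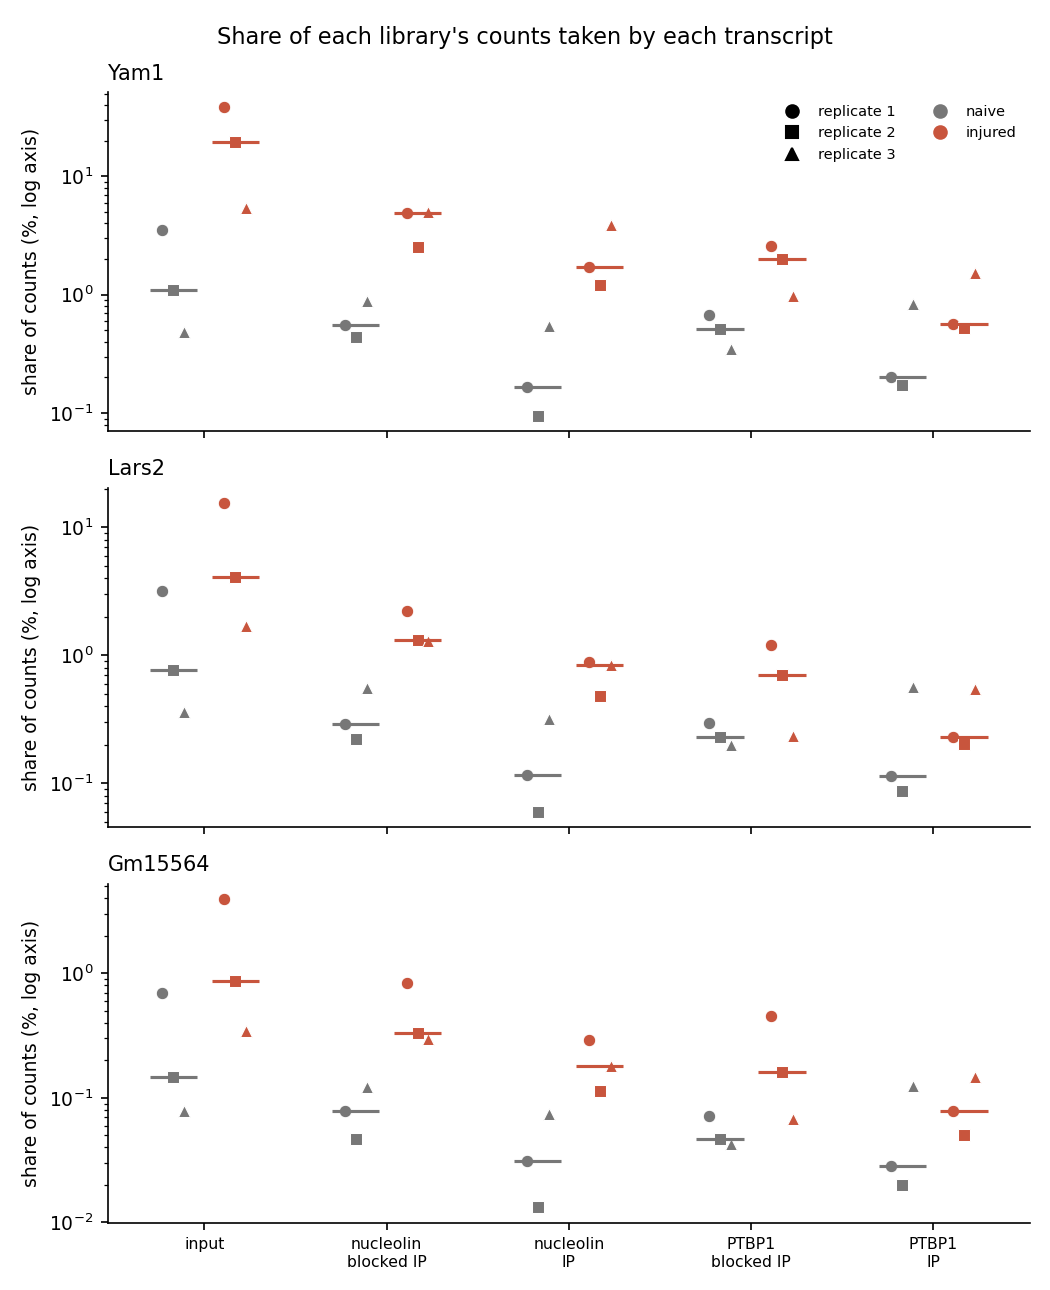
Share of each library's counts (percent, log axis) taken by Yam1, Lars2 and Gm15564 in the 5 kinds of sample, with naive libraries in grey, injured ones in red, a symbol for each replicate number and a bar at the group's median. Yam1 reaches 38.1% in an injured input, and the injured libraries lie above the naive ones for Yam1 in every kind of sample except the PTBP1 IP.

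In the edgeR quasi-likelihood fit of the 6 inputs, with TMM scaling and Benjamini-Hochberg adjustment over 14095 transcripts, all 3 genes were called higher in the injured inputs. The log2 fold change was 4.39 for Yam1 (SE 0.95, adjusted p = 0.00448), 3.16 for Lars2 (SE 1.00, adjusted p = 0.0326) and 3.38 for Gm15564 (SE 1.05, adjusted p = 0.0308). DESeq2 called Yam1 but not Lars2 (adjusted p = 0.0771) or Gm15564 (adjusted p = 0.0686). Of all transcripts tested by edgeR, 14.5% were called higher and 27.8% were called in either direction. The genes were chosen in view of these libraries, so these values describe the choice and nothing is read from the count of 3. The authors' deposited table gives log2 fold changes of 4.02, 2.63 and 2.72 for Yam1, Lars2 and Gm15564 in this comparison.

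In the edgeR fit of the inputs, which did not use replicate numbers, the calls of Lars2 and Gm15564 depended on single libraries. Without the first injured input, Yam1 was at 2.87 with an adjusted p of 0.0196, while Lars2 was at 0.97 (adjusted p = 0.382) and Gm15564 at 0.94 (adjusted p = 0.403) in the edgeR fit. The calls of both were also lost without naive input 2 (2.82 for Lars2 and 3.01 for Gm15564, adjusted p = 0.0940 and 0.0870 by edgeR) or naive input 3 (2.70 and 2.92, adjusted p = 0.0808 and 0.0794). That of Lars2 was lost without injured input 2 (3.45, adjusted p = 0.0509 by edgeR). Without naive input 2, naive input 3 or injured input 2, the fold changes stayed near those of all 6 inputs. Leaving out injured input 1 lowered them most. Leaving out naive input 1 raised them, to 4.52 for Lars2 (adjusted p = 0.00992 by edgeR) and 4.84 for Gm15564 (adjusted p = 0.00950 by edgeR). The summed level of 6 macrophage markers was 742 to 1577 CPM in the naive and 3773 to 6590 in the injured inputs, and none of the 6 was at 0 in all libraries of a group. That of 6 of 8 Schwann cell markers was 31913 to 53464 in the naive and 3246 to 8908 in the injured inputs. These CPM are also per total with the 3 genes included. The part of these cell types in the difference of the 3 genes was not tested.

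The question put to the IP libraries was whether the 3 genes were recovered with the antibody more than with the blocked antibody. In naive nerve, Yam1 took 0.165%, 0.0950% and 0.543% of the nucleolin IPs and 0.558%, 0.439% and 0.883% of the blocked IPs. In injured nerve, it took 1.72%, 1.199% and 3.91% of the nucleolin IPs and 4.86%, 2.55% and 4.98% of the blocked IPs. The shares were lower in the IPs on average, and the 2 ranges overlapped in either condition.

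Lars2 took 0.115%, 0.06004% and 0.317% of the naive nucleolin IPs, against 0.289%, 0.222% and 0.556% of the blocked IPs. In injured nerve the IPs were at 0.881%, 0.477% and 0.840%, and the blocked IPs at 2.21%, 1.32% and 1.28%. Here the injured IPs lay wholly below the injured blocked IPs. Gm15564 took 0.0309%, 0.0132% and 0.0743% of the naive nucleolin IPs, against 0.0783%, 0.0471% and 0.123% of the blocked IPs. Its injured IPs were at 0.291%, 0.113% and 0.182%, and its injured blocked IPs at 0.836%, 0.334% and 0.295%, so that all 3 IPs lay below all 3 blocked IPs, the closest values being 0.291% and 0.295%.

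Over both conditions, the share in the nucleolin IP was 0.415 of the share in the blocked IP for Yam1, 0.424 for Lars2 and 0.412 for Gm15564 (ratios of geometric means, n = 6 against 6). In an exact two-sided permutation test of the log2 shares, with labels permuted within naive and within injured (400 regroupings, smallest possible p 0.005), the unadjusted p-values were 0.025, 0.015 and 0.020. Adjusted over the 8 tests against blocked IPs, all 3 exact permutation p-values were 0.06 and missed the threshold. Adjusted over 16 tests, of which the other 8 compared IPs with the inputs that the genes were chosen in, they were 0.0364, 0.0267 and 0.0320. The genes were also selected on shares in these libraries, the values that the test uses again. The lower shares are therefore not taken as a call.

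The ratio stayed below 1 with each library left out in turn, with a log2 value from -1.62 to -0.96 over the 3 genes. Without the third naive IP, the exact permutation p-values adjusted over the 8 tests were 0.030, 0.020 and 0.020 for Yam1, Lars2 and Gm15564. That was the only removal with values under the threshold. With any other single nucleolin library left out, the adjusted p-values of this test were 0.06 to 0.136. The blocked libraries listed 1.54% to 21.8% of transcripts at 0 and the IP libraries 0.0821% to 2.48%, and the part of this difference in the result was not tested.

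In the edgeR fit of the 12 nucleolin libraries none of the 3 genes was called in IP against blocked IP. Their log2 fold changes in naive nerve were -1.19 (SE 0.75) for Yam1, -1.08 (SE 0.68) for Lars2 and -1.04 (SE 0.72) for Gm15564. In injured nerve they were -0.79 (SE 0.74), -1.03 (SE 0.68) and -1.22 (SE 0.72). Of 11840 transcripts edgeR called 0% in either condition, with 1422 in naive and 769 in injured nerve at an unadjusted p under 0.05, and DESeq2 called 761 and 314. For Yam1 in injured nerve the authors' deposited table gives a log2 fold change of 0.83, opposite in sign to the value of -0.79 obtained here.

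With PTBP1 the picture differed between libraries of 1 group. Yam1 took 0.204%, 0.174% and 0.840% of the naive PTBP1 IPs, against 0.678%, 0.517% and 0.346% of the blocked IPs. In injured nerve the IPs were at 0.569%, 0.519% and 1.53%, and the blocked IPs at 2.58%, 1.99% and 0.975%. The third IP of each condition was the highest of its IPs, and the third blocked IP was the lowest of its blocked IPs. The ranges therefore overlapped.

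Lars2 repeated this order, with 0.114%, 0.0873% and 0.561% in the naive PTBP1 IPs and 0.295%, 0.231% and 0.199% in the naive blocked IPs. In injured nerve it took 0.228%, 0.203% and 0.541% of the IPs and 1.195%, 0.703% and 0.236% of the blocked IPs. Gm15564 ranged from 0.02003% to 0.124% in the naive IPs and from 0.0429% to 0.0718% in the naive blocked IPs. In injured nerve it ranged from 0.05004% to 0.147% in the IPs and from 0.0677% to 0.459% in the blocked IPs.

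The share in the PTBP1 IP was 0.530 of that in the blocked IP for Yam1, 0.611 for Lars2 and 0.620 for Gm15564, and none of these passed the exact permutation test (p = 0.136, 0.263 and 0.280, adjusted over the 8 tests). Without the third naive IP, the adjusted p-values of the exact permutation test were 0.0343, 0.0343 and 0.0450, and the log2 ratios were -1.28, -1.12 and -1.09. That was the only removal with values under the threshold. With any other single PTBP1 library left out, the adjusted p-values of this test were 0.096 to 0.535. As for nucleolin, the genes were selected on shares in these libraries. In the edgeR fit the naive log2 fold changes were -0.30 (SE 0.62), 0.10 (SE 0.69) and 0.12 (SE 0.75) for Yam1, Lars2 and Gm15564, and the injured ones -0.66 (SE 0.62), -0.72 (SE 0.69) and -0.89 (SE 0.76). None of the 3 was called in either condition. The PTBP1 blocked libraries listed 15.8% to 30.4% of transcripts at 0 and the PTBP1 IP libraries 1.64% to 19.3%, and the part of this difference was not tested. Of 14540 transcripts edgeR called 0%, with 1893 and 1815 at an unadjusted p under 0.05 in naive and injured nerve, and DESeq2 called 1099 and 902.

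**Figure D2:**
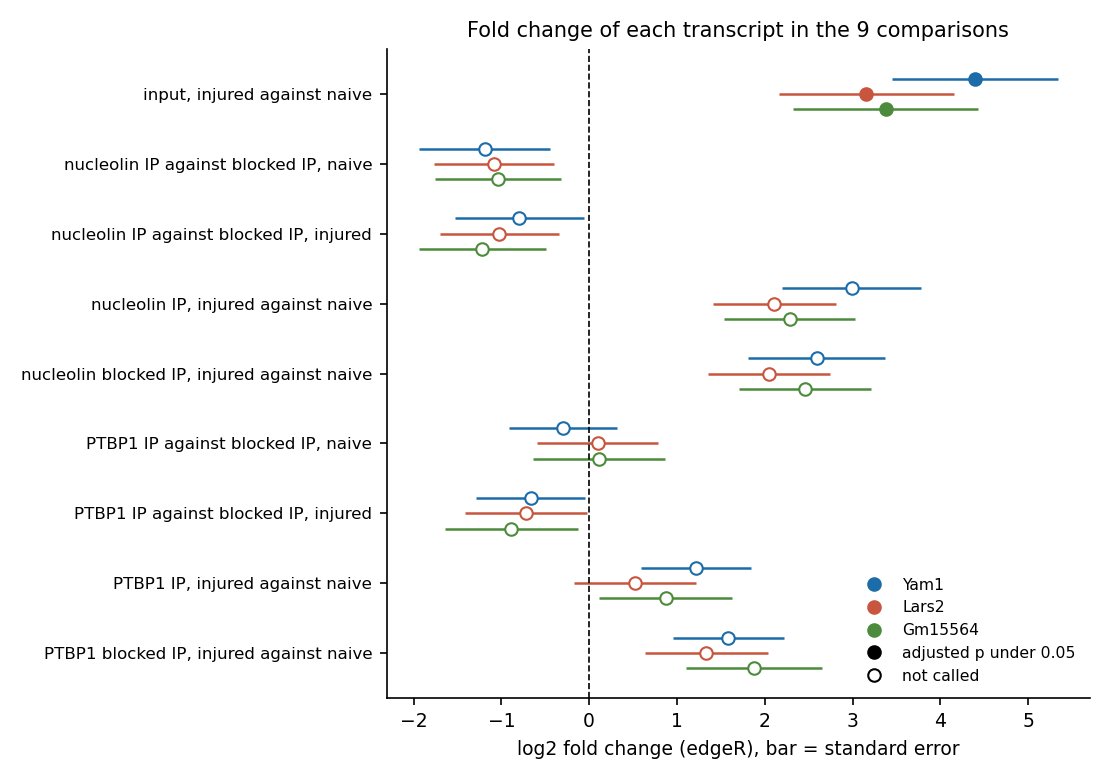
Log2 fold change (edgeR) of Yam1, Lars2 and Gm15564 in the 9 comparisons, with a standard error derived from the F statistic and filled points at an adjusted p under 0.05. The filled points are those of the inputs, at 4.39, 3.16 and 3.38, and every injured-against-naive value lies above 0.

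Against the inputs, both antibodies gave lower shares. The share in the nucleolin IP was 0.145 of the input share for Yam1, 0.142 for Lars2 and 0.164 for Gm15564. The share in the PTBP1 IP was 0.110, 0.107 and 0.127 of the input share. The 2 sets of ratios use the same 6 inputs. Since the inputs were what the genes were chosen in, these ratios are given with no test.

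Injury was also compared within the IP and blocked libraries. The mean Yam1 share went from 0.268% ± 0.241 (SD, n = 3) in the naive to 2.27% ± 1.44 (SD, n = 3) in the injured nucleolin IPs, and from 0.627% ± 0.230 to 4.13% ± 1.37 in the nucleolin blocked IPs. In the PTBP1 libraries it went from 0.406% ± 0.376 to 0.872% ± 0.569 in the IPs and from 0.514% ± 0.166 to 1.85% ± 0.813 in the blocked IPs. Injured and naive Yam1 shares did not overlap in 4 of 5 sample types, inputs included, the exception being the PTBP1 IP. Lars2 shares did not overlap in 2 of 5 sample types and Gm15564 shares in 2 of 5, in each case the nucleolin IP and the nucleolin blocked IP. With 3 libraries against 3, the exact permutation test cannot give a p below 0.1.

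In the edgeR fits all 12 injured-against-naive log2 fold changes of the 3 genes outside the inputs were above 0, and none was called. The median over all transcripts tested was -0.083 in the nucleolin IPs and -0.051 in the blocked IPs. For PTBP1 it was -0.137 and -0.0052. The 3 genes move together and were selected on their shares, so they are not independent and nothing is read from the count of 12. In the nucleolin IPs they were 2.99 (SE 0.79, adjusted p = 0.113) for Yam1, 2.11 (SE 0.70, adjusted p = 0.211) for Lars2 and 2.28 (SE 0.75, adjusted p = 0.207) for Gm15564, where 0.828% of transcripts were called. In the nucleolin blocked IPs they were 2.59 (SE 0.78, adjusted p = 0.106), 2.05 (SE 0.70, adjusted p = 0.141) and 2.46 (SE 0.75, adjusted p = 0.109), where 1.55% were called. DESeq2 called all 3 genes in both of these comparisons, with adjusted p-values from 0.000795 to 0.0353. It also called far more of all transcripts than edgeR, 725 of 11840 in the IPs and 1623 of 11840 in the blocked IPs. Both the IPs and the peptide-blocked IPs thus had all 3 genes above 0 on this scale.

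In the PTBP1 IPs the log2 fold changes were 1.22 (SE 0.62, adjusted p = 0.531), 0.52 (SE 0.69, adjusted p = 0.860) and 0.87 (SE 0.76, adjusted p = 0.754), where 0.00688% of transcripts were called by edgeR. In the PTBP1 blocked IPs they were 1.59 (SE 0.63, adjusted p = 0.171), 1.34 (SE 0.70, adjusted p = 0.291) and 1.88 (SE 0.78, adjusted p = 0.185), where 0.0275% were called. Tests of the difference between these effects gave no call for the 3 genes. For Yam1, the injury effect in the PTBP1 IP minus that in the input was -3.05 on the log2 scale (SE 1.24, adjusted p = 1.00 by edgeR over 18 libraries), and in the nucleolin IP minus that in the input it was -1.42 (SE 1.33, adjusted p = 1.00). The difference of the Yam1 injury effect between IP and blocked IP was 0.40 (SE 1.04, adjusted p = 1.00) for nucleolin and -0.37 (SE 0.87, adjusted p = 1.00) for PTBP1 by edgeR.

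Ordered by mean share, Yam1 was highest in the injured inputs, followed by the injured nucleolin blocked IPs (4.13%), the injured nucleolin IPs (2.27%), the injured PTBP1 blocked IPs (1.85%), the naive inputs (1.70%) and the injured PTBP1 IPs (0.872%). The naive nucleolin blocked IPs (0.627%), PTBP1 blocked IPs (0.514%), PTBP1 IPs (0.406%) and nucleolin IPs (0.268%) were lowest. Only the step from the injured inputs to the next group was free of overlap between neighbours. The orders of Lars2 and Gm15564 also began with the injured inputs and ended with the naive nucleolin IPs, and all neighbours in them overlapped.

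The 3 genes moved together across libraries. In the 12 nucleolin libraries, the log2 shares of Lars2 and Gm15564 correlated with r = 0.990 and rho = 0.993, those of Yam1 and Lars2 with r = 0.972 and rho = 0.937, and those of Yam1 and Gm15564 with r = 0.945 and rho = 0.944. In the 12 PTBP1 libraries the same pairs had r = 0.978, 0.948 and 0.948 and rho = 0.937, 0.944 and 0.951. The genes were selected together on shares in these libraries, and the 4 groups of a set differ in level, so these values are a description with no p. Without the 2 libraries farthest from the median, r was 0.885 to 0.983. Within groups, from deviations from the group means, r was 0.736 to 0.975, lowest for Yam1 and Gm15564 in the nucleolin libraries.

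In the 6 inputs the values were r = 0.999 for Lars2 and Gm15564, 0.951 for Yam1 and Lars2 and 0.944 for Yam1 and Gm15564. Without the 2 inputs farthest from the median they were 1.00, 0.849 and 0.837. All shares of a library have the same denominator. With counts outside the 3 genes as denominator, r over the inputs was 0.999, 0.964 and 0.959.

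**Figure D3:**
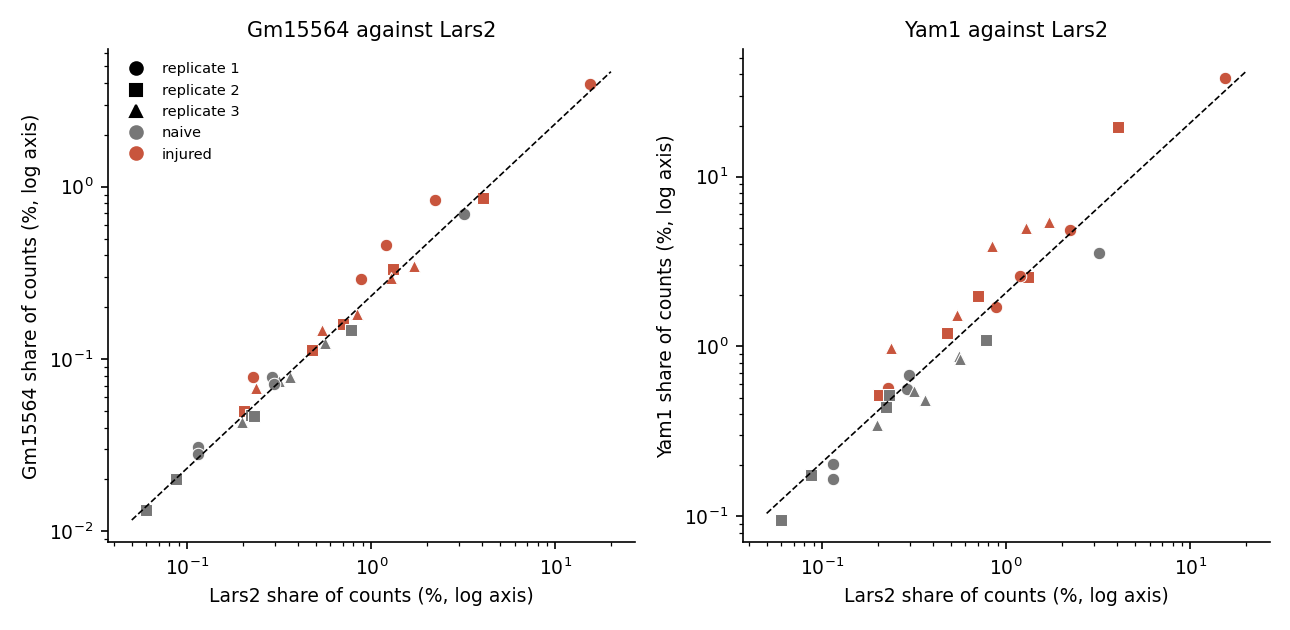
Shares of Gm15564 (left) and Yam1 (right) against the share of Lars2 in the 30 libraries (percent, log axes), with naive libraries in grey, injured in red and a dashed line at the median ratio. The Gm15564 points follow the line over the whole range, and most injured Yam1 points lie above it.

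Ratios of counts within a library do not depend on its total. Lars2 had 2.61 to 5.27 counts for each count of Gm15564 (median 4.30), a 2.02-fold range, while the shares of these genes spanned 256-fold and 299-fold. In the inputs the ratio was 4.57, 5.27 and 4.57 in naive and 3.89, 4.70 and 4.93 in injured nerve. Injured and naive ratios overlapped in all 5 sample types, with exact permutation p-values of 0.2 to 0.8. The mean was lower in injured nerve in all 5, with log2 differences from -0.415 in the PTBP1 blocked IPs to -0.095 in the inputs. The smallest p possible here is 0.1, so these tests cannot show that the ratios are the same. In all 10 groups, naive and injured, the library with replicate number 1 had the lowest ratio, from 2.61 to 4.57, although among the naive inputs numbers 1 and 3 were both at 4.57.

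Yam1 had 1.11 to 4.82 counts for each count of Lars2, a 4.33-fold range. In the naive inputs the ratio was 1.11, 1.41 and 1.34, and in the injured inputs it was 2.48, 4.82 and 3.16. Over all sample types it was 1.11 to 2.30 in the 15 naive libraries and 1.93 to 4.82 in the 15 injured ones, of which 11 lay above every naive library. The ranges did not overlap in 3 of 5 sample types, the inputs and both IPs, where the exact permutation p was 0.1, the smallest that 3 against 3 allow (adjusted p = 0.167 over the 5 sample types). The Yam1 counts per Lars2 count were thus higher in most injured libraries, and no single sample type could pass the threshold in this design. Yam1 counts per Gm15564 count separated injured from naive libraries in 1 of 5 sample types only, the inputs. There the injured ratio was 2.46 of the naive one (geometric means). It was 1.68 in the nucleolin IPs, 1.16 in the nucleolin blocked IPs, 1.22 in the PTBP1 IPs and 1.06 in the PTBP1 blocked IPs, with overlapping ranges.

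**Figure D4:**
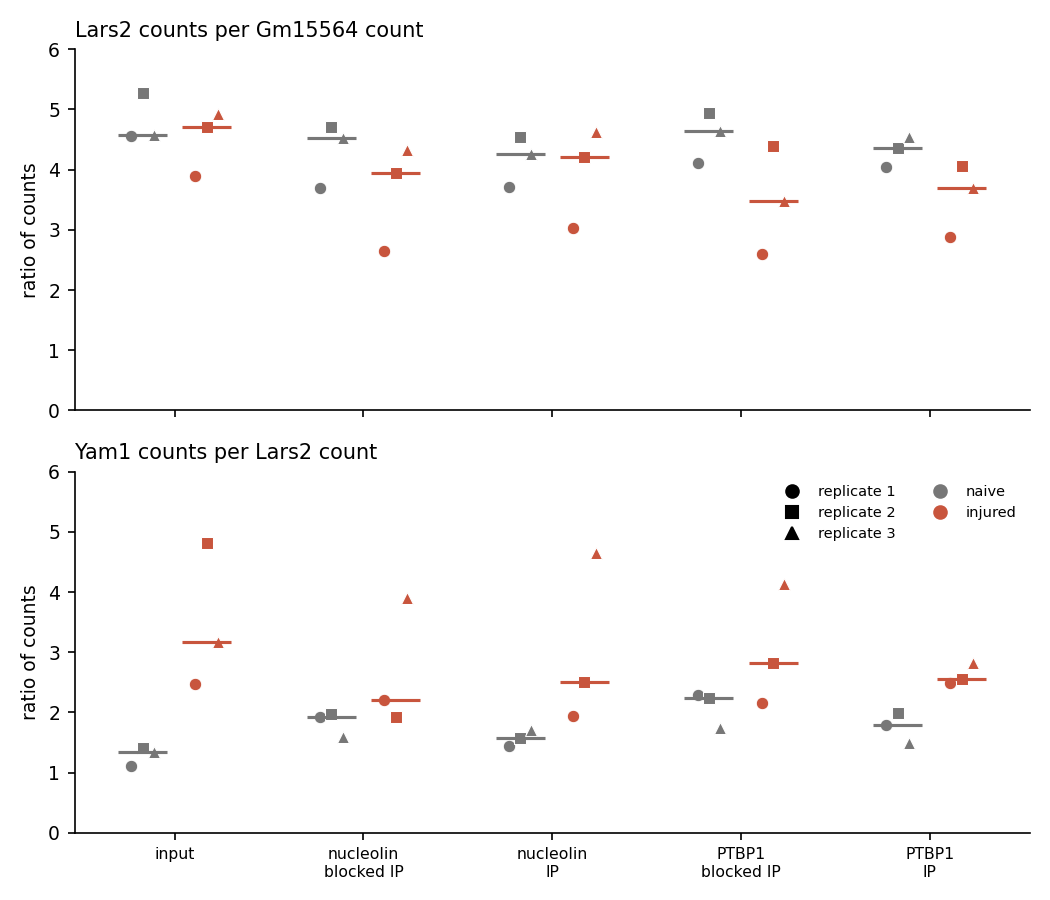
Lars2 counts per Gm15564 count (top) and Yam1 counts per Lars2 count (bottom) in each library, by sample type, naive in grey and injured in red, with a bar at the group's median. The top ratio stays between 2.61 and 5.27, and the bottom one is 1.11 to 1.41 in the naive and 2.48 to 4.82 in the injured inputs.

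The transcripts most like the 3 genes were sought among 7249 transcripts of all 4 tables with a mean of at least 10 CPM, by Pearson's r of log2 shares over the 30 libraries, as a description. The 3 genes were each other's close neighbours, with r = 0.990 for Lars2 and Gm15564. The closest transcript outside them was in each case Mir6236, with r = 0.968 to Yam1, 0.935 to Lars2 and 0.916 to Gm15564, the 1 transcript of another gene above 0.9 for any of the 3. The median r over the transcripts was 0.0372 for Yam1. Next came Rpsa-ps10, a processed pseudogene of the ribosomal protein gene Rpsa, with r = 0.862 to Yam1, 0.791 to Lars2 and 0.818 to Gm15564. The rest of the 5 closest held Rps24 (r = 0.817 to Yam1) and Rps12 (r = 0.757 to Gm15564), which encode small-subunit ribosomal proteins, and Gm23935 (r = 0.790 to Lars2), annotated as a miRNA.

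Mir6236 is a transcript annotated as a miRNA at chr9:110281287-110281409 on the plus strand. Its RefSeq mature sequence, on GRCm38.p6, is shown because it is the closest neighbour of all 3 genes, with the seed, bases 2 to 8, in capitals. The transcript shared no 25-base word with any other gene in the reference transcripts.
miR-6236, chr9:110281353-110281371, plus strand: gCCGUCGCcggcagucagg

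Mir6236 was at 965, 226 and 65.5 CPM in the naive inputs and at 2020, 2559 and 575 in the injured inputs. The ranges overlapped, as for Lars2. It was at 23.3 to 93.7 in the naive nucleolin IPs and at 106 to 184 in the naive nucleolin blocked IPs. In injured nerve it was at 194 to 428 in the nucleolin IPs and at 517 to 823 in the blocked IPs. All nucleolin IPs thus lay below the blocked IPs of their condition. With PTBP1 the ranges overlapped. Mir6236 was at 31.5 to 182 CPM in the naive PTBP1 IPs and 76.2 to 156 in the naive blocked IPs. In injured nerve it was at 72.6 to 397 in the PTBP1 IPs and 230 to 451 in the blocked IPs.

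A pair of further transcripts was looked at after their values were seen, because of where they lie. AA474408, with sequence in common with Lars2 and Gm15564, had 0.305 to 83.0 CPM and followed none of the 3 genes (r = -0.0468 to -0.0117 over 30 libraries). Gm26917, a noncoding gene 616 bases from Yam1 on the same strand, had 3.04 to 4914 CPM (r = 0.277 to 0.356). Over the 30 libraries neither transcript followed the 3 genes closely. Within the inputs, however, Gm26917 was at 26.7, 8.61 and 3.04 CPM in naive and at 145, 39.2 and 11.8 in injured nerve. These values put the inputs in the same order as the shares of Lars2 and Gm15564 did. The order by Yam1 differed, with the third injured input above the first naive input. A correlation of Gm26917 with the 3 genes over the inputs alone was not tested.

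For Lars2 the other mitochondrial synthetases give a scale. Scaled to transcript length (CPM, divided by kilobases of transcript), the level of Lars2 was 8157, 1982 and 926 in the naive inputs and 39542, 10411 and 4361 in the injured inputs. Gars, which encodes the glycyl-tRNA synthetase of both cytosol and mitochondria, was the highest of the 15 other listed genes of this group in each input, at 12.1 to 27.9. Lars2 was thus 46.5-fold to 467-fold above the highest other gene in the naive inputs and 183-fold to 3268-fold in the injured inputs. Lars, which encodes the cytosolic leucyl-tRNA synthetase, was at 7.76 to 11.6 in the naive and 7.53 to 10.8 in the injured inputs. Its log2 fold change between the inputs was 0.26 (SE 0.31, adjusted p = 0.580 by edgeR).

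**Figure D5:**
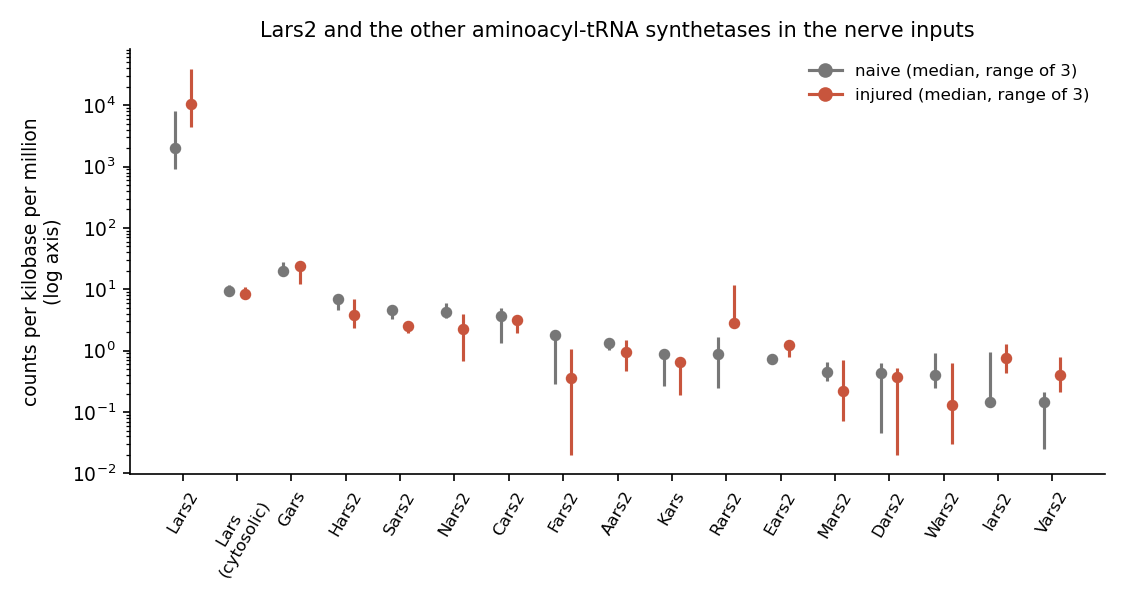
Length-scaled level (CPM divided by kilobases of transcript, log axis) of Lars2, cytosolic Lars and 15 other synthetase genes in the naive (grey) and injured (red) inputs, as the median and range of 3 libraries, with levels of 0 drawn at 0.02. Lars2 lies at 926 or above in each input and no other gene exceeds 27.9.

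Among the 15 mitochondrial synthetase genes tested in the inputs, 1 rose with injury and none fell by edgeR. Over all transcripts 27.8% were called in this comparison and 14.5% were called higher. The gene that rose was Rars2, for mitochondrial arginine (log2 fold change 3.38, SE 1.05, adjusted p = 0.0306). The list's median was -0.15, beside 0.0017 for all transcripts. Of 16 tested genes of RNA polymerase I and ribosomal DNA transcription, 2 rose and 2 fell, with a median of 0.15. This count is near the 27.8% called over all transcripts. Taf1d, a subunit of the factor that selects the ribosomal DNA promoter, rose (1.98, SE 0.48, adjusted p = 0.00884), while Polr2k, a small subunit that all nuclear RNA polymerases contain, fell (-1.69, SE 0.57, adjusted p = 0.0420), as did the promoter factor subunit Taf1b (-1.46, SE 0.45, adjusted p = 0.0280). The other gene that rose was the polymerase I subunit gene Twistnb (0.78, SE 0.27, adjusted p = 0.0490), named after its value was seen.

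Of 9 tested abundant noncoding RNAs, 3 rose and 1 fell in the injured inputs by edgeR, with a median of 1.98, beside 27.8% of all transcripts called in either direction and 14.5% called higher. Rpph1, the RNA of RNase P, rose (3.55, SE 0.99, adjusted p = 0.0186), as did Rn7s2, a signal recognition particle RNA (2.14, SE 0.46, adjusted p = 0.00457). The last to rise was Neat1, the RNA of nuclear paraspeckles (1.09, SE 0.37, adjusted p = 0.0465), named after its value was seen. Rn7sk, the 7SK RNA, fell (-1.67, SE 0.48, adjusted p = 0.0207). Rn45s, Rn18s, mt-Rnr1 and mt-Rnr2, the ribosomal RNA genes of this list, were not listed under these names among the transcripts of any comparison. Nor were AY036118 and Gm26870, so the levels of these genes were not analysed. In the 8 comparisons outside the inputs, 0 genes of these lists were called by edgeR, with 10 to 12 synthetase genes, 14 to 17 polymerase I genes and 5 to 7 noncoding RNAs tested.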

How the data were processed

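Members and gene lists were chosen with earlier results of these data known. RNA sequencing libraries (30, in 10 groups of 3) were used as the authors' deposited raw counts per transcript, in 4 tables of 14181 to 15841 transcripts. The submitters' processing notes name CASAVA 1.8.2, edgeR and the builds mm10 and GRCm38. The sources used here name no aligner or counting program, and state neither its use of strand nor its treatment of reads that match several places. Unless strand was used, reads of overlapping genes on opposite strands (Yam1 with CT010467.1 and AY036118) cannot be told apart. The tables list different transcripts, so totals differ in what they cover. In the naive nucleolin and the naive PTBP1 data, the column of the blocked IP with replicate number 3 carries another control name (PCP) and was matched by condition, antibody and number. 114 other per-sample columns were not used. The log2 fold changes and false discovery rates (q-values) in the authors' deposited tables are printed only where named.

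Shares are counts over the library's table total, and tests used log2 of (count + 0.5)/(total + 1). edgeR 4.0.16 (R 4.3.3; filterByExpr, TMM, glmQLFTest) was fitted to the 6 inputs, or to the 12 libraries of an antibody (for nucleolin, over the 11862 transcripts in both of its tables), with a threshold of 0.05 on the Benjamini-Hochberg adjusted p. The SE printed with an edgeR value was derived, as the absolute log2 fold change divided by the square root of the test's F statistic. Correlations (given with no p) and exact permutations used scipy 1.17.1. A script tested on simulated counts recovered 80% of transcripts changed by 2 and 100% of those changed by 4 log2 units in the input comparison (13630 transcripts). For nucleolin IP against blocked IP these were 2% and 47% (11818 transcripts), and for PTBP1 0% and 11% (14178 transcripts). Alternatives were DESeq2 1.42.0, other scalings, filters and denominators, a replicate block, and leaving out each library. Leaving out libraries for the ratios between members, the replicate block for differences of differences, and the adjustment of share tests over the 8 against blocked IPs, were chosen after seeing the data. Named genes were the members, the 5 transcripts most like each, and up to 3 called genes of each list with the largest change.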

Additional observations from a re-analysis of the deposited data

How the results depend on the processing

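Of 578 alternatives to 52 results, 504 kept direction and, where tested, their side of the threshold, 49 lost the threshold, 15 passed it and 10 changed sign. For share tests this tally starts from the p adjusted over 16 tests, which is not taken as a call above. The losses include 11, 9, 9 and 11 for the nucleolin IP shares of Yam1, Lars2, Gm15564 and their sum against blocked IP. DESeq2 gave log2 fold changes of 3.12 for Lars2 (adjusted p = 0.0771) and 3.34 for Gm15564 (adjusted p = 0.0686) in the inputs. It called Yam1, Lars2 and Gm15564 in the injured against naive nucleolin IPs (2.97, 2.10 and 2.28) and blocked IPs (2.59, 2.05 and 2.46). The cause of these differences was not tested.

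Replicate numbers are shared between groups, and in no comparison did every same-numbered pair correlate above 0.1, so the criterion for pairing was not met. In 5 of 9 comparisons every sample correlated best with its own number, a hint from the data and not from the design. The inputs were not among these 5. There edgeR with the replicate block kept the calls of Yam1 (4.05), Lars2 (2.66) and Gm15564 (2.75). Its adjusted p-values were 7.0e-07, 7.8e-06 and 1.6e-05, for genes chosen in these same inputs. With the replicate block, edgeR called Yam1 (3.17) and Lars2 (2.31) in the injured against naive nucleolin IPs, and Yam1 (2.64), Lars2 (2.21) and Gm15564 (2.50) in the blocked IPs. Calls there went from 98 to 334 and from 184 to 475 transcripts. For shares in nucleolin IP against blocked IP, the exact sign-flip test of the replicate block had all 6 of 6 numbered pairs lower in the IP, at log2 ratios of -1.27, -1.24, -1.28 and -1.25 (Yam1, Lars2, Gm15564 and their sum). Its unadjusted p was 0.03125, the smallest it can give, and its p adjusted over the 8 tests was 0.0625. Adjustment over these 8 tests alone, chosen after seeing the data, also ended the calls made over 16 tests, at the same ratios. All these share tests use values that the genes were selected on.

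Leaving out 1 library in turn gave ranges of log2 fold changes in the inputs of 0.97 to 4.52 for Lars2 and 0.94 to 4.84 for Gm15564. In naive PTBP1 IP against blocked IP they were -0.75 to 0.58 for Lars2, -0.65 to 0.70 for Gm15564 and -0.95 to 0.28 for Yam1. Signs changed for Lars2 and Gm15564 without blocked IP 2 (-0.016 and -0.052), blocked IP 3 (-0.088 and -0.090) or IP 3, and for Yam1 without blocked IP 1 or IP 2 (0.041). In injured nerve the ranges were -1.07 to 0.023 for Lars2 and -1.25 to 0.29 for Gm15564, with the sign changed without blocked IP 1. Log2 ratios of shares in nucleolin IP against blocked IP ranged from -1.62 to -0.99 for Yam1, -1.56 to -0.96 for Lars2, -1.59 to -0.97 for Gm15564 and -1.59 to -0.97 for the sum. For PTBP1 they ranged from -1.28 to -0.71, -1.12 to -0.45, -1.09 to -0.33 and -1.23 to -0.62.

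Counts of called transcripts also moved. In the inputs, 3924 became 2327 with library totals as scaling. The 98 and 184 calls became 725 and 1623 with DESeq2, 495 and 0 with the compared groups fitted alone, and 2 to 27 and 13 to 419 with 1 library left out. Where edgeR called 0 in naive nucleolin IP against blocked IP, it called 39 with library totals and 320 without blocked IP 3. Depth set no limit on the 3 genes, whose counts were at least 1379.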
